A study of Macaca mulatta with 80 samples.

Results

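Gene expression in CA3 of the rhesus monkey hippocampus was compared between newborn males of 1 day and males of 1 year, with 4 arrays at each age. These 8 arrays were taken by their labelled region and age from the 80 of the series, which covers 5 hippocampal regions of 16 male monkeys at 4 ages. A further 4 CA3 arrays from males of 6 months served as the midpoint, and dentate gyrus (DG) and subiculum (Sub) of the same 3 ages, 12 arrays each and taken from the same monkeys, were used to ask whether a change differed between regions. All animals received an overdose of pentobarbital before the brain was removed; the labels name no other treatment and no genetic modification. Each array held total RNA of 1 region of 1 monkey, from the mid-transverse part of all CA3 layers at the mid-rostrocaudal level of the hippocampal body. The tissue is therefore a mixture of cell types, and in such bulk samples fewer cells of a type and less RNA per cell cannot be told apart. Probes on this array match human sequences, and 1 that fits the macaque transcript poorly will read low at any age. Adult CA3 was not compared here, because its GAPDH control had a 3'/5' log2 ratio between 2.33 and 3.06, a sign of shorter RNA, against 1.06 to 1.22 at one year and 1.07 to 1.22 in newborns.

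CA3 pyramidal cells receive mossy fibres from the dentate gyrus, excite each other through recurrent collaterals and project to CA1 through the Schaffer collaterals. In primates these cells are born before birth, while their dendrites, spines, afferent synapses and surrounding glia go on maturing afterwards. Markers of migrating and growing neurons, synaptic proteins, neurotrophins and extracellular matrix are therefore the gene groups most often followed in this tissue.

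These ages were chosen for comparison because both have a low GAPDH 3'/5' ratio, so their likeness in it is no test of RNA quality. That log2 ratio was 1.13, 1.07, 1.22 and 1.14 in newborns and 1.18, 1.19, 1.22 and 1.06 at one year. The actin ratio lay between 3.45 and 3.78 over these arrays. Of 10 CA3 markers, GRIK4, NECTIN3 and CFAP299 had their highest mean over newborn and one year arrays in CA3, 5 were highest in entorhinal cortex (EC), 1 in DG and 1 in Sub. Over both ages NECTIN3 alone stood clearly apart, at 7.59 in CA3 against 5.69 to 7.04 elsewhere. In newborns alone NECTIN3 read 7.28 ± 0.35 (SD, n = 4) in CA3 and 7.06 ± 0.35 in CA1. GRIK4 read 5.66 against 5.31 to 5.50, and in newborns alone it was not highest in CA3 (5.63, against 5.70 in CA1 and 5.64 in DG). The bright markers TRPS1 (8.81 in EC, 8.47 in both CA3 and DG) and ELAVL2 (10.1 in EC, 9.83 in CA3) were highest in EC. IYD, CFAP299 and PLAGL1 read between 4.08 and 4.65 in CA3. These markers thus give the label little support beyond NECTIN3, and in newborns NECTIN3 hardly set CA3 apart from CA1. The newborn arrays differed among themselves. NTS, the neuropeptide neurotensin, read 7.61 and 7.92 on newborn numbers 13 and 16 but 4.33 and 4.91 on numbers 14 and 15, and 4.08 to 4.43 on every older CA3 array. The newborn mean of NTS was 9.03 in CA1, 8.89 in Sub and 4.23 in DG. The mean level of 22 myelin genes was also higher on numbers 13 and 16 (7.41 and 7.34) than on 14 and 15 (6.71 and 6.96), whereas that of 7 CA1 markers was not (6.28 and 6.22 against 6.22 and 6.54). In newborns WFS1, FIBCD1, GPR161 and LEFTY1 read higher in CA3 (6.25, 6.46, 6.22 and 4.93) than in CA1 (6.20, 6.36, 6.13 and 4.75). POU3F1, MPPED1 and CCN3 read higher in CA1 (8.73, 7.86 and 6.91) than in CA3 (7.29, 7.02 and 6.05). The mean of these 7 markers therefore says little about CA1 tissue. Number 14 had the lowest mean correlation with its own group, 0.983, and read 5.47 for STXBP6, which is enriched in granule cells, against 6.53 to 6.91 on the other newborn arrays. What set these arrays apart was not tested. Counts over all genes are given also without numbers 13 and 16, and list counts where they change by more than 1.5 times without them or without 14 and 15; leaving out these pairs was chosen after the data were seen.

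Between birth and one year, 646 of 19,775 genes (3.27%) passed an adjusted p of 0.05 in limma with Benjamini-Hochberg adjustment over all genes, 303 of them higher (1.53%) and 343 lower (1.73%) at one year. The median change over all genes was -0.0033 on the log2 scale. These shares are the background for every list count below, and where 1 to 3 members of a list passed, the count describes those members and not the list. Among the genes that passed, 18 rose and 30 fell by more than 1 log2 unit. Leaving out newborn numbers 13 and 16 gave 976 calls, 531 of them higher, of which 429 were also among the 646. Leaving out 1 array at a time gave between 324 and 848 calls, with 366 without newborn 15, 366 without one year 5, 400 without one year 6 and 324 without one year 7. In all 8 of these fits the same 268 genes passed with their direction kept, 122 higher and 146 lower, and these are called stable below, a term that covers these 8 fits and no other setting. List members that passed without being stable are given with the number of these 8 fits in which they did not pass and the highest adjusted p among them; those outside the rule for named genes were singled out after their values were seen.

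**Figure D1:**
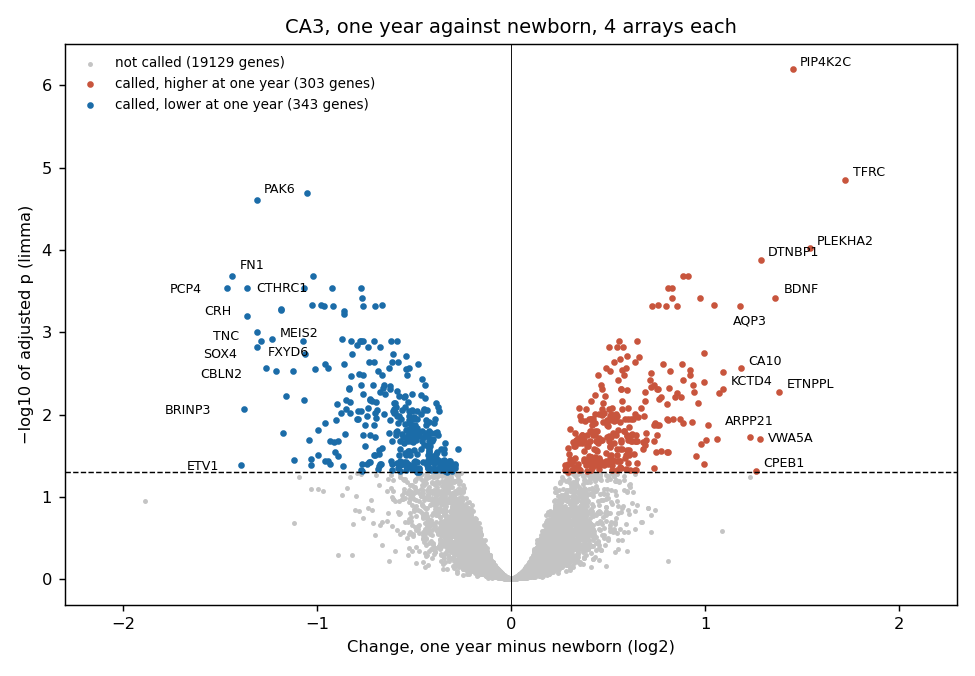
Change between newborn and one year CA3 (horizontal, log2) against the −log10 of the limma adjusted p (vertical) for 19,775 genes, 4 arrays per age. Coloured points passed the threshold of 0.05 (dashed line), 303 higher and 343 lower. PIP4K2C and TFRC stand highest on the right, and PAK6 is among the highest on the left.

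Among genes whose higher group mean exceeded the median of all genes (5.98), the largest rise was that of TFRC, the transferrin receptor through which cells take up iron. Its log2 signal was 7.72, 8.05, 7.79 and 7.77 on newborn arrays 13 to 16 and 9.65, 9.43, 9.84 and 9.30 on one year arrays 5 to 8. Every one year array lay above every newborn array, as it did for 695 genes (3.51%) in all. The difference was 1.72 ± 0.13 (SE, n = 4 per age), or 3.30-fold (limma adjusted p = 1.41e-05), and 3 of its 4 other probe sets moved the same way. Over the mean of its probe sets the change was 0.66, less than the 1.45 of PIP4K2C, so the rank holds for the chosen probe set.

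PLEKHA2, an adaptor that binds phosphoinositides at the membrane, read 8.95, 8.73, 8.67 and 9.05 in newborns and 10.65, 10.13, 10.40 and 10.38 at one year, a rise of 1.54 ± 0.14 (SE), and of 0.60 over the mean of its probe sets. PIP4K2C, a phosphatidylinositol phosphate kinase, read 7.45, 7.26, 7.54 and 7.28 and then 8.77, 8.78, 8.96 and 8.83. With a rise of 1.45 ± 0.08 (SE) it had the smallest adjusted p of all genes, 6.44e-07 in limma. The groups did not overlap for either gene. PIP5K1B, which makes phosphatidylinositol bisphosphate, went the other way: it read 8.12, 7.73, 8.55 and 8.17 in newborns and 6.96, 6.77, 7.0 and 7.10 at one year, a fall of 1.19 ± 0.15 (SE, limma adjusted p = 0.000539). Its 1 other probe set did not share that direction, and over their mean the fall was 0.57 (limma adjusted p = 0.00437).

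BDNF, the neurotrophin that supports synapse growth and plasticity, read 8.09, 7.89, 7.26 and 7.82 in newborn CA3. At one year it read 9.17, 9.15, 9.37 and 8.80, without overlap, a rise of 1.36 ± 0.16 (SE) or 2.57-fold (limma adjusted p = 0.000386). The rise was 1.55 without newborn numbers 13 and 16. DTNBP1, dysbindin, a protein of endosomal and synaptic vesicle trafficking, rose by 1.29 ± 0.13 (SE), from 7.31, 7.60, 7.44 and 7.18 to 8.40, 8.74, 8.90 and 8.63. CA10, a secreted carbonic anhydrase relative that binds neurexins, rose by 1.18 ± 0.18 (SE), from 7.16 to 7.99 in newborns to 8.56 to 9.16 at one year. All 3 are stable, and their age groups did not overlap.

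AQP3, a channel for water and glycerol, was close to uniform in newborns, at 7.36, 7.52, 7.42 and 7.43. At one year it read 8.33, 8.86, 9.0 and 8.25, so that the older arrays fell into a lower and a higher pair, and the rise was 1.18 ± 0.14 (SE, limma adjusted p = 0.00048). ETNPPL, an enzyme of ethanolamine phosphate breakdown found in astrocytes, showed the reverse spread: 6.36, 5.54, 7.23 and 6.44 in newborns and 7.83, 7.82, 7.67 and 7.78 at one year. Its rise of 1.38 ± 0.24 (SE) was stable (limma adjusted p = 0.00525). KCTD4 rose by 1.09 ± 0.19 (SE), from between 7.87 and 8.91 to between 9.21 and 9.90.

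The remaining 3 of the 12 largest rises each lost their call without certain single arrays. CPEB1, which binds the cytoplasmic polyadenylation element of mRNAs, read 6.35, 7.67, 6.40 and 6.52 in newborns and 8.51, 7.45, 7.43 and 8.60 at one year, so the groups overlapped. Its change of 1.26 ± 0.33 (SE, limma adjusted p = 0.0484) did not pass without newborn numbers 13 and 16 together (0.197), nor without newborn 13, 15 or 16 (adjusted p = 0.127, 0.144 and 0.106) or without one year 5, 7 or 8 (0.162, 0.0524 and 0.126). VWA5A had a change of 1.28 ± 0.28 (SE) and overlapping groups, and did not pass without newborn 15, one year 5 or one year 7 (limma adjusted p = 0.0569, 0.0572 and 0.0683) or without newborn numbers 13 and 16 together (0.0507). ARPP21, a cAMP-regulated phosphoprotein of neurons, had a change of 1.23 ± 0.27 (SE), which did not pass without the same 3 arrays (limma adjusted p = 0.0584, 0.0538 and 0.0751). Over the mean of all its probe sets ARPP21 had a change of 0.19 (limma adjusted p = 0.383), and 1 of 5 other probe sets shared the direction. ARPP21 also did not pass without newborn numbers 14 and 15 (0.0825).

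**Figure D2:**
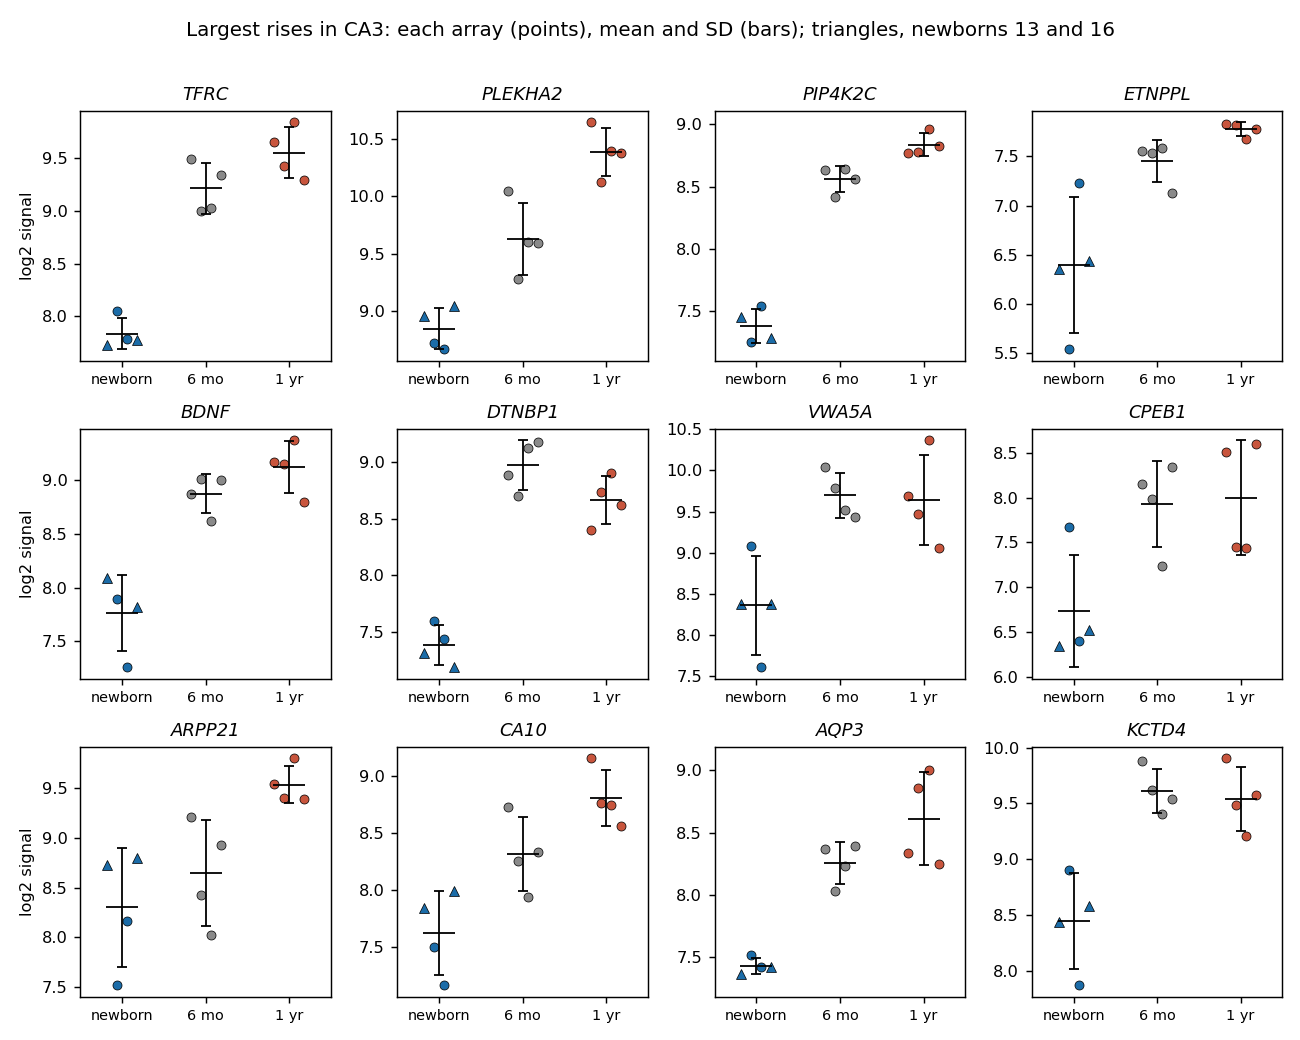
Log2 signal of the 12 genes with the largest rises on each CA3 array at birth, 6 months and 1 year (points), with group mean and SD (bars, n = 4); triangles mark newborn numbers 13 and 16, and each panel has its own vertical range. TFRC, PLEKHA2 and PIP4K2C show no overlap of newborn and one year arrays, whereas VWA5A and CPEB1 do.

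Among the falls, PCP4 came first with all arrays. This small calmodulin regulator was listed as a marker of CA2 pyramidal cells, but it was not specific to them here. Over newborn and one year arrays its mean was 8.43 in CA3, below Sub (10.46), EC (9.47) and DG (8.66). In newborns alone the CA3 mean (9.16) lay above those of DG (8.44) and CA1 (8.54). In CA3 PCP4 read 9.43, 8.94, 8.83 and 9.42 in newborns and 7.46, 7.76, 7.44 and 8.13 at one year. This was a fall of 1.46 ± 0.16 (SE), 2.75-fold lower (limma adjusted p = 0.000289). Without newborn numbers 13 and 16 its change was -1.19 (limma adjusted p = 0.00166). CTHRC1 (-1.52), CBLN2 (-1.45) and FN1 (-1.38) fell further in that fit, so the rank rests on the pair. Of the 8 CA2 markers measured, PCP4 was the one that passed. RGS14, another, read 9.04, 9.29, 9.42 and 8.94 in newborns and 8.28, 8.30, 8.74 and 9.12 at one year, a difference of -0.56 that did not pass (limma adjusted p = 0.106), but passed without one year 8 (-0.73, 0.0185). The list mean lay between 6.41 and 6.51 in newborns and between 6.17 and 6.36 at one year, while its median change was 0.02 and 4 of the 8 markers had a CA3 mean of 5.58 or lower. How much CA2 tissue each dissection held was not tested.

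PAK6, a p21-activated kinase of the neuronal cytoskeleton, had the smallest adjusted p of the 12 largest falls. It read 8.76, 8.64, 8.65 and 8.66 in newborns and 7.14, 7.53, 7.20 and 7.60 at one year, a fall of 1.31 ± 0.11 (SE, limma adjusted p = 2.50e-05). CRH, corticotropin-releasing hormone, which hippocampal interneurons and Cajal-Retzius cells make, fell by 1.36 ± 0.17 (SE), from 7.82, 7.05, 8.01 and 7.72 to 6.55, 6.38, 6.25 and 5.99. CBLN2, a secreted organizer of synapses, fell by 1.27 ± 0.20 (SE), from 8.29, 9.34, 8.17 and 8.48 to 7.09, 7.18, 7.42 and 7.54. None of these 3 had overlapping groups, a state shared by 792 genes (4.01%) on the lower side.

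FN1, fibronectin, fell by 1.44 ± 0.15 (SE), from 9.52, 9.22, 9.54 and 9.48 to 7.98, 7.83, 7.77 and 8.42. TNC, tenascin C, a matrix protein of radial glia and young astrocytes, fell by 1.31 ± 0.18 (SE), from 8.55, 8.0, 8.95 and 8.67 to 7.58, 7.11, 7.07 and 7.17. CTHRC1, a secreted collagen-repeat protein, fell by 1.36 ± 0.15 (SE), from between 8.59 and 9.10 to between 7.19 and 7.62. The 3 are stable, with limma adjusted p of 0.000208, 0.00101 and 0.00029, and over the mean of probe sets FN1 and TNC fell by 0.90 and 0.46.

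SOX4, a transcription factor of young neurons, fell by 1.31 ± 0.19 (SE), from 9.67, 8.73, 9.19 and 9.73 to 8.13, 8.02, 8.07 and 7.85, and MEIS2, a homeodomain transcription factor, by 1.23 ± 0.17 (SE), from between 7.25 and 8.04 to between 6.37 and 6.77. FXYD6, a regulator of the sodium pump, fell by 1.29 ± 0.18 (SE), from between 7.63 and 8.41 to between 6.60 and 7.11. Without newborn numbers 13 and 16 the changes were -0.94 for SOX4, -1.13 for MEIS2 and -1.16 for FXYD6, and all 3 still passed. BRINP3 and ETV1 were high mainly on newborn numbers 13 and 16. Their newborn means were 8.98 and 8.19 in Sub, 8.60 and 7.63 in EC, 7.21 and 7.65 in CA1 and 6.51 and 5.58 in DG. Whether the dissections differed was not tested. In CA3 BRINP3 read 8.06, 6.56, 7.10 and 8.11 in newborns and 5.98 to 6.26 at one year. Its fall of 1.38 ± 0.26 (SE) came to 0.75 without numbers 13 and 16 (limma adjusted p = 0.0111). ETV1 read 7.79, 5.63, 6.57 and 7.75 and then 5.35 to 5.88. Its difference of -1.39 (limma adjusted p = 0.0409) shrank to -0.56 without numbers 13 and 16 (adjusted p = 0.165) and did not pass without any 1 of 7 arrays, newborn 13, 15 or 16 (0.111, 0.0608 and 0.104) or one year 5, 6, 7 or 8 (0.105, 0.105, 0.131 and 0.0511).

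**Figure D3:**
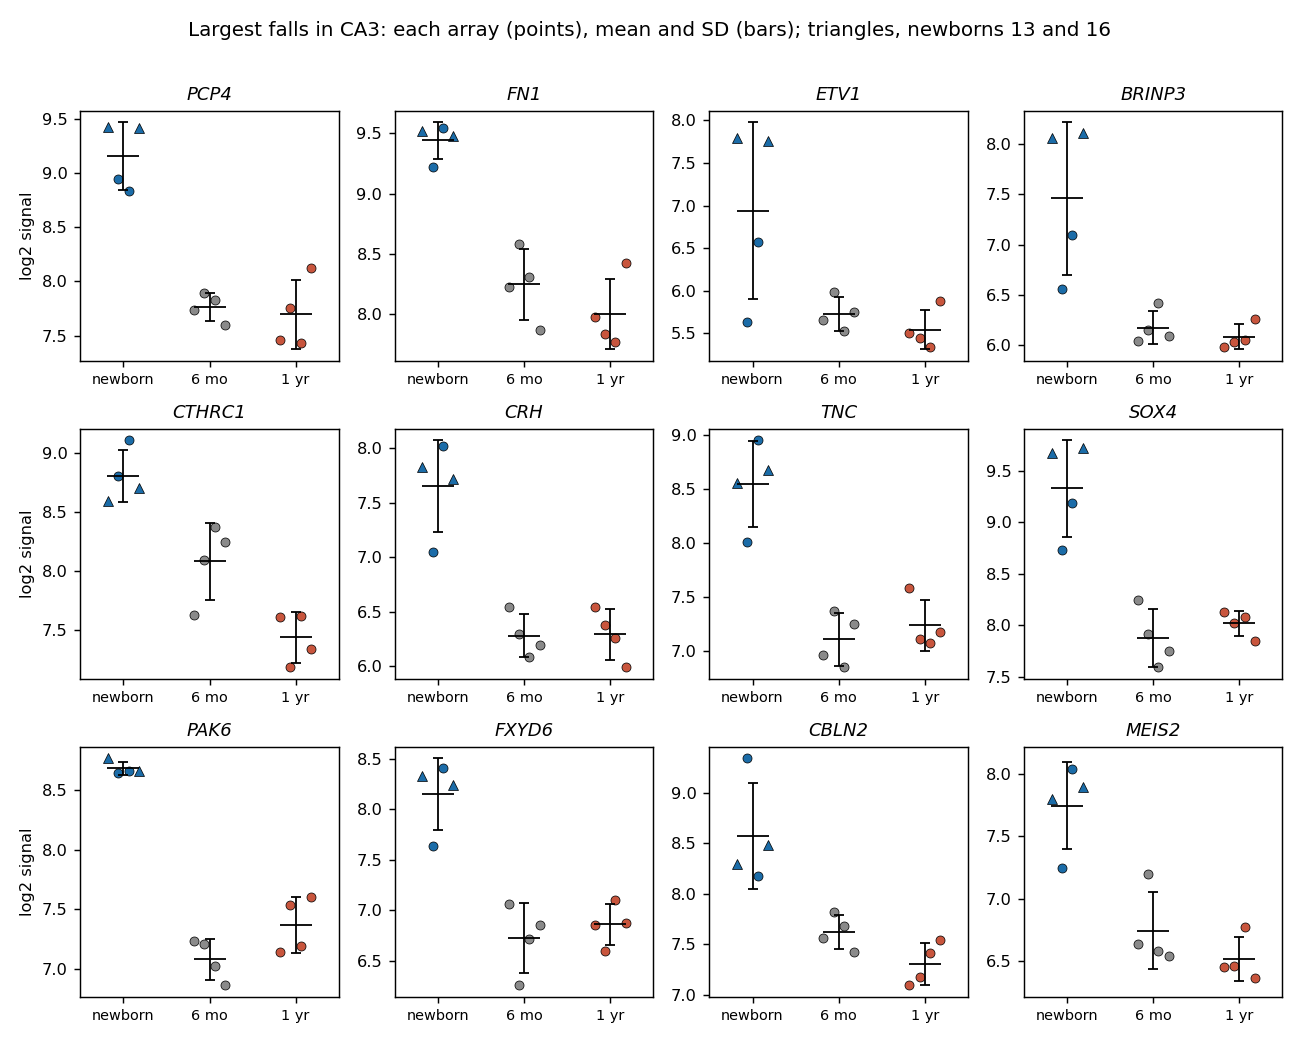
Log2 signal of the 12 genes with the largest falls on each CA3 array at birth, 6 months and 1 year (points), with group mean and SD (bars, n = 4); triangles mark newborn numbers 13 and 16, and each panel has its own vertical range. PAK6 is tight in newborns (8.64 to 8.76), while ETV1 and BRINP3 are highest on numbers 13 and 16.

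In the list of immature neuron and neurite genes, 13 of 27 measured members passed, each with a fall, and the median change was -0.39. Of the 13, 10 were stable. Without newborn numbers 13 and 16, 11 fell and 2 passed on the higher side, the microtubule proteins MAP1B (0.48, limma adjusted p = 0.0287) and KIF21A (0.99, 0.00503), which with all arrays had changes of 0.19 and 0.63 and did not pass (0.67 and 0.088). DPYSL3, a collapsin response mediator of growth cones, read 9.69, 9.47, 9.36 and 9.53 in newborns and 8.58, 8.49, 8.41 and 8.37 at one year, a fall of 1.05 ± 0.09 (SE, limma adjusted p = 2.06e-05). DCX, doublecortin, which binds microtubules in migrating neurons, fell by 0.98 ± 0.12 (SE), from 8.60, 8.07, 8.32 and 8.51 to 7.61, 7.26, 7.40 and 7.31. Neither gene had overlapping groups. Without newborn numbers 13 and 16 DPYSL3 changed by -0.95 and DCX by -0.80 (limma adjusted p = 0.00027 and 0.00378). MARCKSL1, an actin-binding protein of growing neurites, fell by 1.18 (limma adjusted p = 0.000526), and DPYSL5, a relative of DPYSL3, by 0.79 (0.00143). SOX11, a close relative of SOX4, fell by 1.21 and NREP, a protein of neuronal regeneration, by 0.94, and TMSB10, IGFBPL1 and CRMP1 fell by 0.70, 0.58 and 0.39. The other 3, MARCKS (-0.51), CD24 (-0.94) and STMN1 (-0.42), did not pass in 6 of 8 fits each, with limma adjusted p up to 0.0763, 0.109 and 0.147. The mean of the 27 genes lay between 9.25 and 9.54 on the newborn arrays and between 8.89 and 9.01 at one year.

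Of 25 synaptic vesicle and transmitter release genes, 7 rose, 0 fell and 18 did not pass, with a median change of 0.23. The count was 7 without newborn numbers 13 and 16 and 4 over the mean of probe sets. SYN2, synapsin II, which tethers vesicles, read 11.56, 11.52, 11.19 and 11.50 in newborns and 12.47, 12.33, 12.48 and 12.13 at one year, a rise of 0.91 ± 0.10 (SE, limma adjusted p = 0.000208). PCLO, the active zone scaffold piccolo, rose by 0.76 ± 0.13 (SE, limma adjusted p = 0.00483). SNAP25, a SNARE protein of the plasma membrane, rose by 0.51 (limma adjusted p = 0.0103), and VAMP1, a SNARE protein of the vesicle, by 0.68 (0.0104). These 4 were the stable ones, although over the mean of all probe sets SNAP25 and VAMP1 did not pass (limma adjusted p = 0.0693 and 0.064), VAMP1 did not without numbers 13 and 16 (0.059) and SNAP25 did not without 14 and 15 (0.0572). Of the others, BSN (0.53) did not pass in 4 of 8 fits, SV2B (0.45) in 4 and SYT1 (0.55) in 5, with limma adjusted p up to 0.0693, 0.123 and 0.156. Postsynaptic density genes gave 1 higher and 0 lower of 24, with a median of -0.09: SYNPO, an actin-binding protein of spines, had a change of 0.32 and did not pass in 5 of 8 fits (limma adjusted p up to 0.0612). That list gave 1 lower and 0 higher without numbers 13 and 16 and 2 higher without 14 and 15.

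Transmitter receptors and ion channels passed in small numbers. Ionotropic glutamate receptor genes gave 2 higher and 2 lower of 21, but 3 and 0 without newborn numbers 13 and 16 and 1 and 5 without 14 and 15, and the 1 stable member was CACNG8, an auxiliary subunit of AMPA receptors. It rose by 0.50 (limma adjusted p = 0.00858), from between 7.83 and 8.04 to between 8.26 and 8.63. Over the mean of its probe sets CACNG8 had a change of 0.15 (limma adjusted p = 0.411). NETO1 (0.59), GRIN3A (-0.93), an NMDA receptor subunit prominent in early life, and CNIH3 (-0.59) did not pass in 6, 5 and 6 of 8 fits, with limma adjusted p up to 0.156, 0.0747 and 0.126. GRM3, a metabotropic glutamate receptor of glia and neurons, fell by 0.84 ± 0.14 (SE, limma adjusted p = 0.00475), from 9.83, 9.32, 10.03 and 9.81 to 8.80, 9.16, 8.67 and 9.01. It was the 1 of 6 metabotropic receptors that passed, against 2 without newborn numbers 14 and 15.

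None of 16 GABA receptor and chloride transport genes passed, with a median change of 0.07. GABRA2, a GABA-A receptor subunit, had the smallest p of that list, with a change of 0.60 (limma adjusted p = 0.0874). Of 24 potassium channel genes, 2 rose, while 2 were also lower without newborn numbers 13 and 16. KCNQ5, a subunit of the M current, rose by 0.86 ± 0.15 (SE), from 6.14, 6.03, 5.45 and 6.17 to 6.98, 6.65, 6.96 and 6.62. KCNJ9, an inward rectifier opened by G proteins, rose by 0.55 ± 0.08 (SE, limma adjusted p = 0.00152). Sodium and calcium channel genes gave 1 higher and 1 lower of 21, and CACNA2D3, a calcium channel auxiliary subunit, fell by 0.61 (limma adjusted p = 0.00895), whereas the sodium channel subunit SCN2B (0.38) did not pass in 7 of 8 fits (up to 0.11). Without newborn numbers 14 and 15 that list gave 3 lower and 0 higher, and without 13 and 16, 1 lower and 0 higher. CHRM3, a muscarinic acetylcholine receptor, rose by 0.83 ± 0.10 (SE, limma adjusted p = 0.000386), from 9.52, 9.51, 9.31 and 9.55 to 10.45, 10.30, 10.42 and 10.04. In its list of 22 monoamine and acetylcholine receptors, CHRM3 rose and ADRB1, a beta-adrenergic receptor, was lower (-0.87) but did not pass in 6 of 8 fits (limma adjusted p up to 0.138). The list gave 2 higher and 1 lower without newborn numbers 13 and 16, and 1 higher and 0 lower without 14 and 15.

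Of 25 neuropeptide genes 2 rose and 1, CRH, fell, against 4 lower without newborn numbers 14 and 15. ADCYAP1, the peptide PACAP, rose by 0.81 ± 0.15 (SE), from 5.40, 5.89, 5.60 and 5.82 to 6.56, 6.41, 6.67 and 6.29. CHGB, a granin of dense-core vesicles, rose by 0.62 ± 0.12 (SE, limma adjusted p = 0.0114). Of 31 growth factor genes, 2 were higher and 1 lower, and BDNF was the stable one. FGF1 (0.44) and PTN, pleiotrophin (-0.62), did not pass in 7 of 8 fits each, with limma adjusted p up to 0.114 and 0.112. Without numbers 13 and 16 the list gave 3 higher and 0 lower, and without 14 and 15, 1 higher and 2 lower. EGR3, a transcription factor induced by activity, was the 1 of 14 immediate early genes that passed, against 3 without newborn numbers 13 and 16. It rose by 0.85 ± 0.11 (SE, limma adjusted p = 0.000482), from 7.98, 8.01, 8.05 and 8.15 to 8.98, 9.05, 9.0 and 8.57.

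Of 33 axon guidance genes, 3 passed higher and 2 lower, with a median of -0.03, and 2 higher and 6 lower without newborn numbers 14 and 15. EPHA5, an ephrin receptor, fell by 1.07 ± 0.15 (SE), from 7.59, 7.43, 7.05 and 7.67 to 6.44, 6.31, 6.28 and 6.43. UNC5C, a netrin receptor, rose by 0.88 ± 0.13 (SE), from 7.51, 7.74, 6.93 and 7.44 to 8.20, 8.25, 8.46 and 8.24. EPHA4, another ephrin receptor, changed by 0.61 (limma adjusted p = 0.014) but did not pass without one year 5 or 7 (0.053 and 0.0522), without newborn numbers 14 and 15 (0.0687) or over the mean of its probe sets (0.0783). SLIT2 (0.41) did not pass in 7 and SEMA6A (-0.62) in 6 of 8 fits, with limma adjusted p up to 0.132 and 0.0708.

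Of the 10 CA3 markers, 2 passed, both higher. The list gave 1 higher and 0 lower without newborn numbers 13 and 16, and 2 and 1 without 14 and 15. TRPS1, a zinc finger transcription factor that does not set CA3 apart from DG or EC here, rose by 0.82 ± 0.13 (SE, limma adjusted p = 0.00295), from 8.05, 8.24, 7.71 and 8.23 to 9.06, 8.84, 9.05 and 8.54. The cell adhesion gene NECTIN3 read 7.20, 7.73, 6.87 and 7.32 and then 8.05, 7.79, 8.0 and 7.73, a change of 0.61 (limma adjusted p = 0.0468). NECTIN3 did not pass over the mean of its probe sets (limma adjusted p = 0.156), without newborn numbers 13 and 16 together (0.113), without newborn 13, 15 or 16 (0.108, 0.143 and 0.0817) or without one year 5, 6, 7 or 8 (0.148, 0.0839, 0.145 and 0.0539). Beside these, 2 of 7 CA1 markers were lower: POU3F1 by -0.69 and MPPED1 by -0.72. POU3F1 did not pass without newborn 13 or 15 (limma adjusted p = 0.101 and 0.0718) or one year 5, 6, 7 or 8 (0.0921, 0.141, 0.117 and 0.0709), and MPPED1 not without newborn numbers 13 and 16 together (0.0665), without newborn 13, 15 or 16 (0.0848, 0.0897 and 0.052) or one year 5, 6 or 7 (0.13, 0.0684 and 0.112). The mean of the 7 CA1 markers ran from 6.22 to 6.54 in newborns and from 5.93 to 6.12 at one year, and its part in the changes of CA3 was not tested. Of 11 granule cell markers, 0 passed without newborn numbers 14 and 15, and with all arrays STXBP6 alone passed, at 0.99. It did not pass without newborn 15 (limma adjusted p = 0.0739), without newborn numbers 14 and 15 together (0.0751) or without one year 5, 6, 7 or 8 (0.134, 0.0776, 0.0792 and 0.0599).

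Interneuron markers gave 1 higher and 3 lower of 17, with a median of -0.25, 1 and 1 without newborn numbers 13 and 16 and 2 and 6 without 14 and 15. DLX1, a homeobox gene of interneurons from the ganglionic eminences, fell by 0.86 ± 0.11 (SE, limma adjusted p = 0.000603), from 8.88, 8.38, 8.77 and 9.03 to 7.92, 7.94, 7.83 and 7.94. KIT, a receptor tyrosine kinase of some interneurons, had a change of 0.88 (limma adjusted p = 0.0127), and did not pass without one year 7 (0.0539). DLX1 was the 1 stable member. CALB2, calretinin (-0.47), and LHX6, a transcription factor of interneurons from the medial ganglionic eminence (-0.53), did not pass in 3 of 8 fits each, with limma adjusted p up to 0.0662 and 0.0794.

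Oligodendrocyte precursor markers gave 5 lower and 0 higher of 13, with a median of -0.44, but 2 lower without newborn numbers 13 and 16, 7 without 14 and 15 and 1 over the mean of all probe sets. OLIG2, the lineage's transcription factor, fell by 0.76 ± 0.12 (SE, limma adjusted p = 0.00332), from 7.77, 7.47, 8.17 and 7.75 to 6.91, 7.05, 7.07 and 7.07. BCAN, the proteoglycan brevican, fell by 0.71 (limma adjusted p = 0.00436), and did not pass over the mean of its probe sets (0.0944). PDGFRA, the growth factor receptor of precursors, read 10.44, 9.49, 10.18 and 10.48 and then 9.29, 9.0, 9.16 and 9.15. Its change of -1.0 (limma adjusted p = 0.0154) did not pass without one year 6 (0.0513) or without newborn numbers 13 and 16 (0.0939). LHFPL3 (-1.03) did not pass in 7 and OLIG1 (-0.54) in 6 of 8 fits, with limma adjusted p up to 0.104 and 0.148. The mean of the 13 precursor genes was 7.42, 6.84, 7.44 and 7.47 on newborn arrays 13 to 16 and 6.84 to 6.91 at one year, so newborn 14 already stood at the one year level.

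Of 22 genes of mature oligodendrocytes and myelin, 1 was higher and 1 lower, with a median of 0.04. Leaving out newborn numbers 13 and 16, whose myelin means were the highest of the newborns, gave 5 higher and 0 lower, and leaving out 14 and 15 gave 1 higher and 6 lower. CNDP1, a dipeptidase, rose by 0.80 ± 0.10 (SE, limma adjusted p = 0.000482), from 5.55, 5.53, 5.50 and 5.65 to 6.03, 6.33, 6.50 and 6.56. ENPP6, a marker of newly formed oligodendrocytes (-0.35), did not pass in 5 of 8 fits (limma adjusted p up to 0.101). MBP, myelin basic protein, singled out after its values were seen, lay between 10.88 and 12.45 in newborns and between 11.47 and 12.22 at one year, a difference of 0.10 (limma adjusted p = 0.948).

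Among 12 radial glia markers, 2 fell and 0 rose. Without newborn numbers 14 and 15, 5 fell. The 2 were TNC and FABP7, a fatty acid binding protein of radial glia and young astrocytes, which fell by 0.77 ± 0.11 (SE, limma adjusted p = 0.00129). FABP7 read 10.16, 9.82, 10.11 and 10.16 in newborns and 9.30, 9.06, 9.31 and 9.50 at one year. Of 15 astrocyte markers, ETNPPL alone passed (2 higher without newborn numbers 14 and 15), and the list's median change was 0.08. CX3CR1, the fractalkine receptor, was the 1 of 14 microglial markers that passed (2 without newborn numbers 14 and 15), a fall of 0.59 ± 0.11 (SE, limma adjusted p = 0.00816), from between 10.00 and 10.53 to between 9.57 and 9.80.

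Of 16 genes of meninges and fibroblasts, 6 fell, all of them stable, and 10 did not pass, 5 of which had positive changes. The median was -0.22, and 6 fell without newborn numbers 13 and 16. COL4A1, a collagen of basement membranes, fell by 0.76 ± 0.09 (SE, limma adjusted p = 0.00048), from 7.10, 6.79, 7.04 and 6.98 to 6.04, 6.32, 6.35 and 6.14. COL3A1, a fibrillar collagen, fell by 0.86 ± 0.13 (SE), from between 6.07 and 6.68 to between 5.45 and 5.62, and DCN, the proteoglycan decorin, by 0.72 (limma adjusted p = 0.00693). DCN did not pass over the mean of its probe sets (0.0569). COL4A2 and COL1A2 fell by 0.70 and 0.57, and FN1, described above, belongs here too. The mean of the 16 genes ran from 6.42 to 6.57 in newborns and from 6.08 to 6.17 at one year. Of 16 endothelial and pericyte genes, CLDN5 (-0.42), PDGFRB (-0.34) and CDH5 (-0.54) were lower but did not pass in 5, 5 and 6 of 8 fits (limma adjusted p up to 0.109, 0.118 and 0.128). That list gave 2 lower without newborn numbers 13 and 16 and 0 without 14 and 15. None of 6 red cell genes passed, against 1 lower without 13 and 16.

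Among 26 genes of perineuronal nets and matrix, 2 passed on the higher and 5 on the lower side, with a median of -0.07, 3 and 3 without newborn numbers 13 and 16 and 1 and 4 without 14 and 15. HAPLN1, a link protein of hyaluronan and lecticans, fell by 1.02 ± 0.11 (SE, limma adjusted p = 0.000208), from 6.80, 6.83, 7.02 and 7.14 to 6.07, 5.92, 5.77 and 5.95. EFEMP1, a fibulin, rose by 0.99 ± 0.14 (SE), from 8.91, 8.40, 8.74 and 8.98 to 9.73, 9.89, 9.66 and 9.74, and SPOCK1, the proteoglycan testican, by 0.42 (limma adjusted p = 0.0132). These 3 were the stable members, but SPOCK1 did not pass without newborn numbers 14 and 15 (0.0694). LAMC1, a laminin chain, had a change of -0.48 (limma adjusted p = 0.0147) and did not pass without newborn 15 or one year 7 (0.0503 and 0.0595), without newborn numbers 14 and 15 together (0.114) or with adult CA3 in the fit (0.0582). NCAN, neurocan (-0.63), did not pass in 3 and NID2, nidogen (-0.47), in 2 of 8 fits, with limma adjusted p up to 0.0608 and 0.0665, and HAPLN4 completes the 5.

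Proliferation genes gave 2 lower and 0 higher of 30, 1 lower without newborn numbers 13 and 16 and 4 without 14 and 15. PTTG1, securin, fell by 0.66 ± 0.08 (SE, limma adjusted p = 0.000473), from 7.76, 7.81, 7.80 and 7.94 to 7.04, 7.23, 7.09 and 7.29. CDC20, an activator of the anaphase-promoting complex, had a change of -0.50 and did not pass without one year 6 or without newborn numbers 13 and 16 (limma adjusted p = 0.0502 and 0.0842). YBX1, an RNA-binding protein abundant in growing tissue, fell by 1.02 ± 0.12 (SE, limma adjusted p = 0.000473), from 12.14, 11.69, 11.84 and 12.15 to 11.05, 10.79, 10.82 and 11.07. In its list of 24 chromatin and RNA-binding genes, with a median of -0.18, BCL11A (-0.32) was also lower but did not pass in 7 of 8 fits (limma adjusted p up to 0.127). Without newborn numbers 13 and 16 the list gave 1 higher and 1 lower, and without 14 and 15, 6 lower.

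Heat shock and stress genes gave 4 higher and 0 lower of 15, with a median of 0.23, and 7 higher without newborn numbers 13 and 16, but 0 without 14 and 15. HSP90AB1, a cytosolic chaperone, rose by 0.41 (limma adjusted p = 0.0114), from 11.45, 11.23, 11.12 and 11.43 to 11.72, 11.65, 11.74 and 11.75, but did not pass without newborn numbers 14 and 15 (0.0961). HSPH1, a large chaperone, had a change of 0.74 and did not pass without one year 5 or 7 (limma adjusted p = 0.0504 and 0.0519) or without newborn numbers 14 and 15 together (0.0857). DNAJA1 (0.64) and HSPA5 (0.48) did not pass in 5 of 8 fits each, with limma adjusted p up to 0.104 and 0.142. Of 23 ribosomal protein genes, RPL18 fell, by 0.52 (limma adjusted p = 0.0115), and the median was -0.17. Of the 23, 22 had negative changes, and 6 passed, all lower, without newborn numbers 13 and 16. RPL18 did not pass over the mean of its probe sets (0.121). IFIT1, an interferon-induced gene, was the 1 of 23 complement, MHC and interferon genes that passed. The count was 3 without newborn numbers 13 and 16 and 2 without 14 and 15. IFIT1 rose by 0.81 ± 0.14 (SE, limma adjusted p = 0.00475). Of 18 glycolysis genes, PFKP (0.43) and ALDOA (0.34) were higher but did not pass in 3 and 7 of 8 fits (limma adjusted p up to 0.0652 and 0.131). In that list 1 passed without newborn numbers 13 and 16, and 0 without 14 and 15. None of 12 cholesterol synthesis, 25 respiratory chain or 11 choroid plexus genes passed, with medians of 0.05, -0.06 and 0.01, although 2 respiratory chain genes were lower without newborn numbers 13 and 16.

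The size of a change depended on the probe set. Over the mean of all probe sets of a gene, 39 of the 75 genes named here that passed had a change more than 1.5 times smaller, and 27 of these 39 still passed. BDNF (1.12) and PIP4K2C (1.45) were not among them. Examples that still passed are DTNBP1 (0.71), CRH (-0.77), SOX4 (-0.50), DPYSL3 (-0.47), DCX (-0.49), DLX1 (-0.48), FABP7 (-0.46), OLIG2 (-0.39), COL3A1 (-0.43), EPHA5 (-0.53), UNC5C (0.29), TRPS1 (0.43), KCNQ5 (0.44), CHRM3 (0.35), HAPLN1 (-0.65), EFEMP1 (0.37) and CX3CR1 (-0.30). PDGFRA (-0.21, limma adjusted p = 0.201), ETV1 (-0.27, 0.18), MPPED1 (-0.38, 0.13) and STXBP6 (0.28, 0.107) did not pass.

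**Figure D4:**
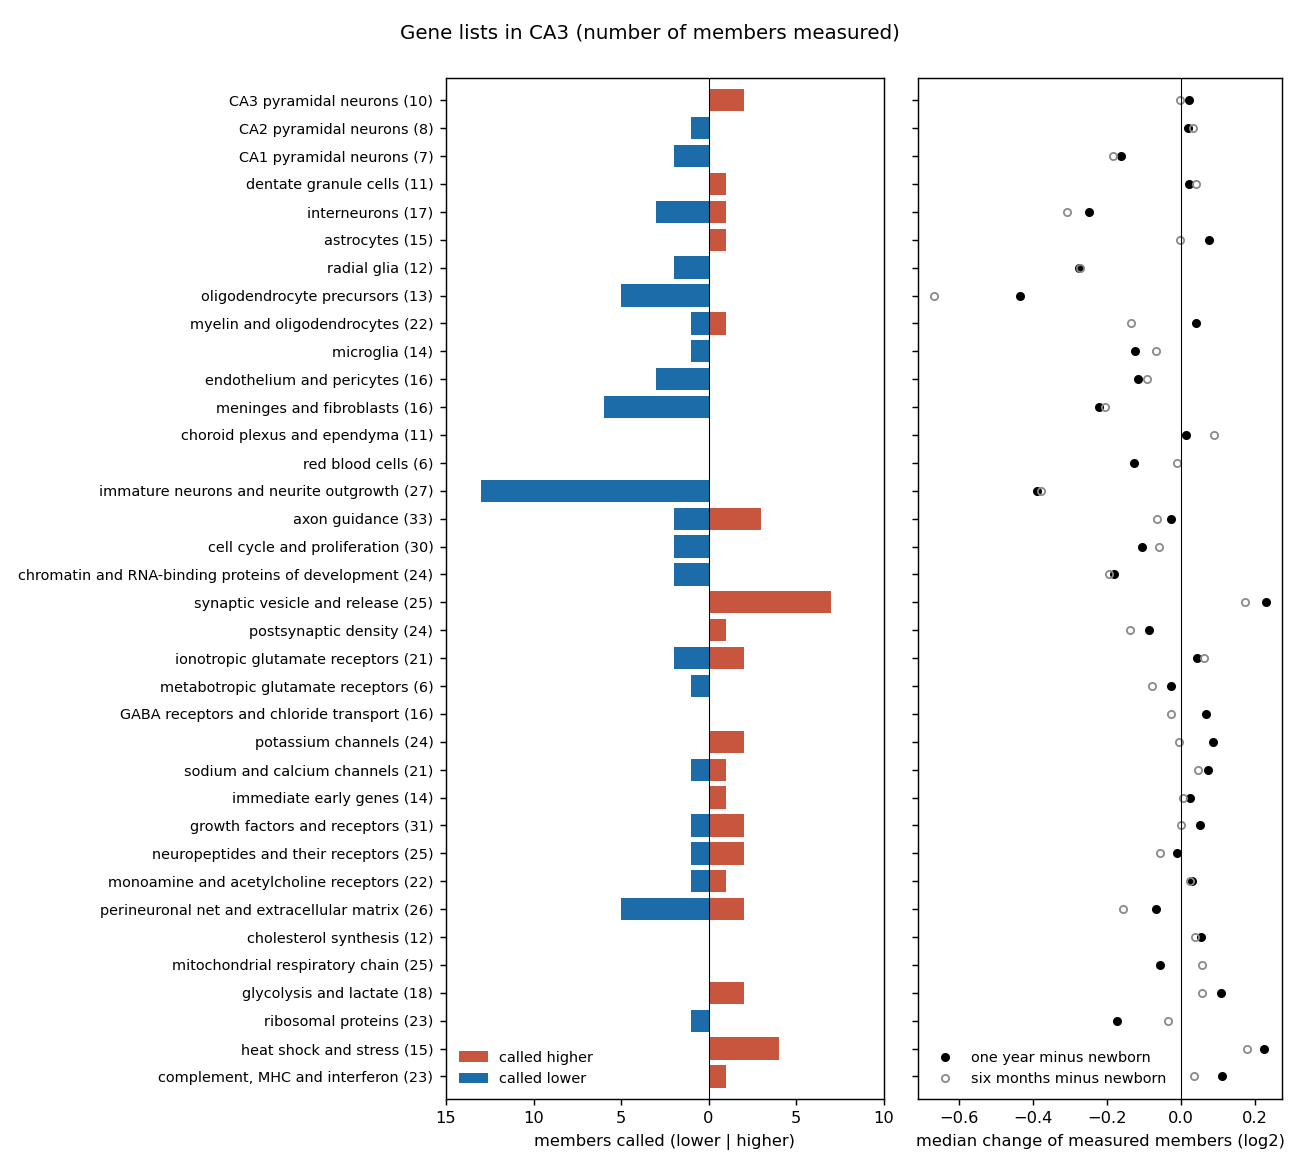
Left, the number of members of each gene list called lower (left of 0) or higher (right of 0) at one year than in newborn CA3, with the members measured in parentheses; right, the median log2 change of the measured members at one year (filled) and at 6 months (open) against the same newborn arrays. Immature neuron genes show 13 lower, synaptic vesicle genes 7 higher.

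The 6 month arrays were set against the same newborn arrays. There, 772 genes (3.90%) passed, 302 higher (1.53%) and 470 lower (2.38%), 628 without newborn numbers 13 and 16 and 1245 without 14 and 15. No gene passed between 6 months and one year, which does not show that none changed. In that last step 1685 of 19,775 genes had an unadjusted limma p under 0.05, where a share of 0.05 would with no change at all. The smallest limma adjusted p was 0.107. A fit with adult CA3 included, or 1 without the 6 month array 12 or without one year 8, gave 1 gene. Because both ages are set against the same newborns, values are given side by side only. Of the 646 genes, 375 also passed at 6 months, 127 higher and 248 lower. Over all 646 the median change was 0.54 in size at one year and 0.45 in the same direction at 6 months. The 646 were picked for passing at one year, which favours a larger size at that age. These medians therefore do not show further change after 6 months. The count at 6 months was 1198 without newborn 14, 465, 431 and 478 without newborn 13, 15 and 16, and 371, 397 and 478 without the 6 month arrays 9, 10 and 12.

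Single genes differed in their course. PAK6 differed from newborns by -1.60 at 6 months and by -1.31 at one year, SOX4 by -1.45 and -1.31, TNC by -1.44 and -1.31, and DTNBP1 by 1.59 and 1.29. TFRC stood at 1.38 and then 1.72, while VWA5A stood at 1.34 and 1.28, its 6 month change not passing without the 6 month array 9 (limma adjusted p = 0.0574). PLEKHA2 was at 0.78 and then 1.54, its 6 month arrays (10.04, 9.28, 9.60 and 9.59) lying between the newborn and one year arrays. CTHRC1 was at -0.72 and then -1.36. ARPP21 differed by 0.35 at 6 months (limma adjusted p = 0.562), VAMP1 by 0.23 (0.392) and CX3CR1 by -0.25 (0.252), and all 3 passed at one year. The step from 6 months to one year passed for none of these genes.

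To ask which changes were larger or smaller in CA3 than in its input region, the change from newborn to one year was compared with that in dentate gyrus. It differed for 57 genes (0.288%), 34 with a higher (0.172%) and 23 with a lower change (0.116%) in CA3, and 30 of the 57 were among the 646. That fit treats the arrays as independent. With the replicate number, which recurs across regions, as a block, the count was 154. Without CA3 newborn numbers 13 and 16 the count was 144, and without 14 and 15 it was 104. Without newborn 14 of CA3 the count was 116, and without one year 7 it was 35. The GAPDH 3'/5' ratio ran from 0.91 to 1.17 in newborn and from 1.16 to 1.44 in one year DG, so it moved with age there and not in CA3, and its part in the difference was not tested.

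BDNF rose in CA3 while its level in DG was high at both ages, 9.0, 9.05, 9.40 and 8.54 in newborns and 9.49, 8.69, 9.0 and 8.94 at one year. The change in CA3 exceeded that in DG by 1.33 ± 0.25 (SE, limma adjusted p = 0.00729), and at one year the CA3 arrays (8.80 to 9.37) lay within the range of DG. PIP4K2C rose in both regions, by 0.83 more in CA3 (limma adjusted p = 0.00729). The fall of PAK6 in CA3 stood against a change of -0.17 in DG, a difference of -1.14 (limma adjusted p = 0.00852). In DG on its own, 905 genes (4.58%) passed between newborn and one year, 397 higher (2.01%) and 508 lower (2.57%).

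PCP4 showed the largest negative difference, -1.91 ± 0.26 (SE, limma adjusted p = 0.000282), with DG at 8.44 ± 0.31 (SD, n = 4) in newborns and 8.89 ± 0.30 at one year. PCDH18, a protocadherin, fell in CA3 by 0.83, from between 7.11 and 7.68 to between 6.11 and 6.85, and rose in DG by 0.74, a difference of -1.57 (limma adjusted p = 0.000282). Its fall within CA3 did not pass over the mean of its probe sets (-0.41, 0.0605), 1 of which did not share the direction, or with adult CA3 in the fit (0.0575). PIP5K1B differed by -1.52 (limma adjusted p = 0.0108) and SERTAD4BP by -1.50 (0.00922). SERTAD4BP itself changed by -0.68 in CA3, which did not pass (limma adjusted p = 0.0718), and rose by 0.82 in DG.

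In the positive direction, PTX3, a pentraxin of innate immunity, read 6.08, 6.87, 6.92 and 5.87 in newborn DG and 4.38 to 4.72 at one year there, against 4.23 to 4.71 and 3.92 to 4.26 in CA3. The difference of 1.55 (limma adjusted p = 0.00511) thus came with a fall in DG of 1.88. In CA3 PTX3 was dim at both ages, below the median of gene means (5.98), so a fall of that size could hardly be seen there. IGFBP2, a binding protein of insulin-like growth factors, differed by 1.34 (limma adjusted p = 0.00511), with a fall of 1.25 in DG and a change of 0.09 in CA3. NHLH2, a transcription factor of young neurons, fell in both, by 0.88 in CA3 and 2.40 in DG. Its difference of 1.52 (limma adjusted p = 0.049) did not pass without newborn 13 or 14 (0.0879 and 0.0722) or one year 5, 6, 7 or 8 (0.0994, 0.063, 0.102 and 0.0619).

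**Figure D5:**
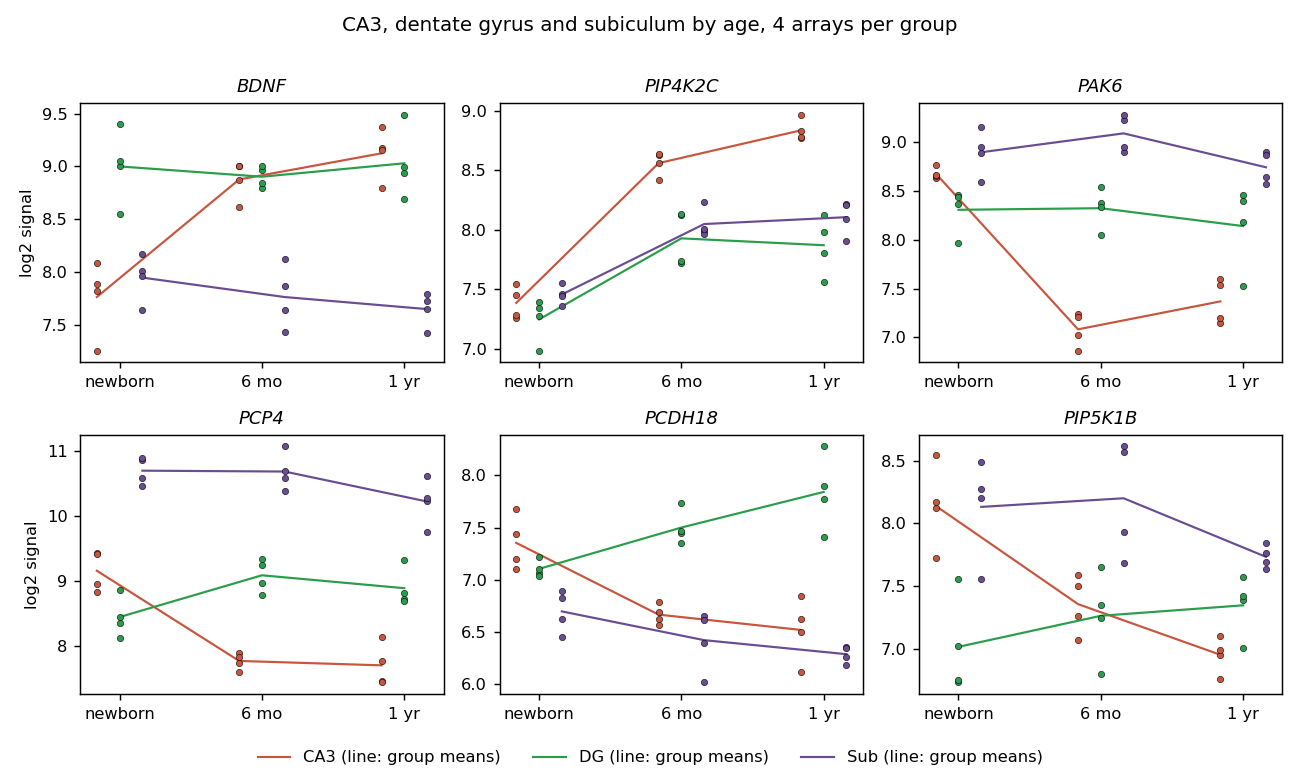
Log2 signal of 6 genes in CA3, dentate gyrus and subiculum at birth, 6 months and 1 year; points are the 4 arrays of each group and lines join group means. BDNF rises in CA3 to the range of DG, and PCP4 falls in CA3 while DG stays between 8.11 and 9.34.

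Against the subiculum, the change from newborn to one year differed for 911 genes (4.61%), 425 with a higher (2.15%) and 486 with a lower change (2.46%) in CA3. In Sub on its own, 2169 genes (11%) passed, 1111 higher (5.62%) and 1058 lower (5.35%). With the replicate number as a block, the count of differences was 1557. Without CA3 newborn 15 it was 600, and without CA3 one year 5 it was 529. It was 1742 without CA3 newborn numbers 13 and 16, and 359 without 14 and 15. The GAPDH ratio of Sub ran from 1.29 to 1.41 in newborns and from 1.51 to 1.56 at one year, without overlap, and its part was not tested. TFRC had a difference of 1.68 ± 0.20 (SE, limma adjusted p = 6.05e-06), since its level in Sub was 7.83 ± 0.23 (SD, n = 4) in newborns and 7.87 ± 0.13 at one year. CA10 rose in CA3 and fell in Sub by 0.73, a difference of 1.91 (limma adjusted p = 1.21e-05). BDNF differed by 1.66 (limma adjusted p = 7.31e-05), with a change of -0.30 in Sub.

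The other named differences from Sub came mainly with changes in Sub. FSTL5, a follistatin relative, differed by 2.23 (limma adjusted p = 0.00119), with a fall of 1.65 in Sub, and RPL27A, a ribosomal protein, by 1.76 (2.53e-05), with a fall of 1.74 in Sub. CTXN1, a cortexin of neurons, differed by -2.39 (limma adjusted p = 1.29e-08): it read 7.08 to 7.41 in CA3 and 9.61 to 10.22 in Sub at one year. CRYAB, a small heat shock protein of glia, differed by -1.94 (limma adjusted p = 6.64e-05) and BHLHE40, a transcription factor of the circadian system, by -1.84 (4.69e-05). None of FSTL5, RPL27A, CTXN1, CRYAB and BHLHE40 passed in CA3 itself, where their changes were 0.58, 0.02, -0.20, 0.05 and -0.50.

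HAPLN4, a link protein of perineuronal nets, read 9.17, 9.02, 9.76 and 9.17 in newborn CA3 and 7.72, 7.76, 8.73 and 8.76 at one year. It rose in Sub by 0.99, and the changes differed by -2.03 (limma adjusted p = 0.000936). Its change within CA3, -1.04 (limma adjusted p = 0.0203), did not pass without newborn 15, one year 5 or one year 6 (0.0685, 0.0721 and 0.0692) or in a fit of the 8 newborn and one year arrays alone (0.0591). DPYSL3 fell in each region, by 1.05 in CA3, 1.70 in DG and 2.22 in Sub, and its fall in CA3 was smaller than in DG (difference 0.65, limma adjusted p = 0.00852) and than in Sub (1.17, limma adjusted p = 4.82e-07).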

How the data were processed

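The values are the log2 signals that the authors deposited for 80 arrays with 54,675 probe sets each. Per the labels' protocols, total RNA was extracted with Trizol and labelled with biotin in a two-cycle protocol. The method that summarised probes is not given in the sources used here. Because quartiles of the arrays spread over more than 0.05, all 80 arrays were quantile normalized together. Each of 19,775 genes was represented by its single-symbol probe set of highest mean, and none was left out for low signal. Differences were fitted with limma 3.58.1 (R 4.3.3, lmFit and eBayes) on 12 CA3 arrays, or 36 arrays for differences between regions, with Benjamini-Hochberg adjustment over all genes; figures used matplotlib 3.10.9 (Python 3.11.15). The fit was tested on simulated data with independent noise on each array. That setting held no monkeys shared between regions and no split among the newborn arrays, so it does not cover these features. The 4 arrays of a group limit precision. The p-values rest on the spread between arrays within groups, pooled over the groups of a fit and moderated across genes. They cover only these 4 monkeys per age, and fits across regions count arrays of the same monkeys as separate.

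Members and the 36 gene lists were chosen with earlier results of these data known. Of 736 list entries, 663 had a probe set. Named genes are the 12 largest rises and falls above the median of gene means (5.98), 3 per direction at 6 months, 4 per direction for each region difference, and up to 4 per list; other list members that passed, MAP1B, KIF21A and MBP were singled out after their values were seen. No sequences or coordinates are given.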

Additional observations from a re-analysis of the deposited data

Results flagged for a closer look

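Over 87 named genes and the control ratios, 267 groups of 4 CA3 arrays were examined for 1 array standing apart from the other 3. This happened in 17, where chance alone flags about 1 in 20 groups. In newborns, number 14 was apart for CPEB1 (7.67, the highest), SERTAD4BP (5.25, the lowest) and FABP7 (9.82, the lowest), and number 15 for KIT (8.78), SYN2 (11.19) and CHRM3 (9.31), each the lowest, and RPL18 (11.18, the highest). At 6 months, number 11 was apart for GABRA2 (8.23) and CHRM3 (10.09), both low, and KCNJ9 (9.16, high), number 12 for ETNPPL (7.13, low), number 10 for MEIS2 (7.20, high) and number 9 for NTS (4.10, low). At one year, number 5 was apart for STXBP6 (7.82, high) and OLIG2 (6.91, low), number 6 for CDC20 (4.92, low) and number 8 for EGR3 (8.57, low).

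By limma's test of the difference, 16 of the 87 named genes changed differently in CA3 and DG between newborn and one year. Over all genes 57 (0.288%) did. Of the 16, 8 were named for the size of this difference, so the count is no result about the named genes. The CA3 change was higher for PTX3 by 1.55, NHLH2 by 1.52, IGFBP2 by 1.34, BDNF by 1.33, TRPS1 by 1.01, PIP4K2C by 0.83, CACNG8 by 0.67 and DPYSL3 by 0.65. It was lower for PCP4 (-1.91), PCDH18 (-1.57), PIP5K1B (-1.52), SERTAD4BP (-1.50), BHLHE40 (-1.16), PAK6 (-1.14), RGS14 (-1.13) and GRM3 (-0.82). Against Sub, where 911 genes (4.61%) differed, the 8 genes named for the size of their difference were FSTL5 (2.23), CA10 (1.91), RPL27A (1.76), TFRC (1.68), CTXN1 (-2.39), HAPLN4 (-2.03), CRYAB (-1.94) and BHLHE40 (-1.84). Other named genes that differed from Sub, such as BDNF and DPYSL3, are not listed here, so the DG and Sub lists cannot be compared in length.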

How the results depend on the processing

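For one year against newborn, none of the 75 named genes that passed changed sign under an alternative. These genes were picked from the same arrays, so a kept sign is no independent support. Of the 12 that did not pass, IGFBP2, RPL27A, CRYAB and MBP changed sign, in 16 combinations in all. Over 1649 combinations of a gene and an alternative, 1536 kept their side of the threshold, 104 lost their call and 9 gained one. Chosen after the data were seen, leaving out newborn numbers 13 and 16 gave 976 calls (531 higher), and leaving out 14 and 15 gave 721. Values as deposited, median centring, adult CA3 in the fit, dim genes left out, quantile normalization over 12 arrays, the 8 arrays alone, the mean of probe sets, a robust trend and a GAPDH covariate gave 444 to 749 calls, counts within 1.5 times of 646. Without 1 array, calls ranged from 324 to 848 (145 to 337 higher, 179 to 511 lower). For 6 months, adult CA3 in the fit gave 432 calls (148 higher, 284 lower), leaving out newborn numbers 14 and 15 gave 1245 (465 higher, 780 lower), and leaving out 1 array 371 to 1198 (114 to 451 higher, 257 to 747 lower). For the last step, adult CA3 in the fit gave 1 call (1 higher), and leaving out 1 array 0 to 1.

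No paired analysis was possible because newborn and one year arrays share no numbers. Across regions the numbers recur. Same-numbered arrays had a mean correlation of deviations of 0.174 (lowest -0.496, 23 of 36 pairs over 0.1), against -0.058 for other numbers. The regions came from the same monkeys, but the labels do not say that a number marks a monkey. The pairing by number was therefore not established, and the main fits treat all arrays as independent. With the replicate number as a block, 154 genes differed from DG (78 higher, 76 lower) and 1557 from Sub (709 higher, 848 lower), and the 8 largest differences named against each region kept their call, as did the other 8 named against DG. Without CA3 newborn numbers 13 and 16, 144 genes differed from DG (65 higher, 79 lower) and 1742 from Sub (841 higher, 901 lower), and without 14 and 15, 104 (68 lower) and 359 (142 higher, 217 lower). Without 1 CA3 array these counts were 35 to 116 for DG (18 to 52 higher, 17 to 64 lower) and 529 to 1110 for Sub (239 to 528 higher, 290 to 582 lower). The arrays carry no read depth; a human probe near background limits what can be seen of dim genes.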
